A study of Mus musculus with 11 samples.

Results

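Transcripts of 9 genes that mark and drive Th17 cells (Il17a, Il17f, Rora, Il23r, Ccr6, Il22, Il21, Ahr and Maf) were followed in RNA sequencing libraries of CD4+ T cells sorted from mouse kidneys on day 2 after ischemia-reperfusion injury (IRI). The genes were chosen by symbol as transcription factors, cytokines and receptors of this helper T cell type, all 9 were found among the 35814 gene symbols measured, and each was also taken relative to the summed counts of Trac, Trbc1 and Trbc2, the 3 genes that encode the constant regions of the αβ T cell receptor (TCR). The 11 libraries came from 3 CD4cre mice, 5 CD4IKK1Δ mice and 3 CD4NIKΔ mice on a C57BL/6 background. All mice were males of 8 to 12 weeks with 45 min of ischemia, and all 3 groups carry a Cre recombinase driven by the CD4 promoter. In CD4IKK1Δ mice this Cre meets a floxed gene for IKK1 (Chuk), in CD4NIKΔ mice a floxed gene for NIK (Map3k14), and CD4cre mice, named for the Cre alone, serve as controls. The CD4 promoter is already active in thymocytes before the CD4 and CD8 lineages separate, so that deletion is not limited to CD4+ cells, and the libraries were made by amplification from small numbers of sorted cells.

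Th17 cells are helper T cells that defend epithelial surfaces and attract neutrophils through IL-17A and IL-17F. Their program is started by IL-6 and TGF-β through STAT3, is carried by nuclear receptors of the ROR family with AHR and c-MAF as partners, and is stabilised by IL-23. In the kidney they accumulate in inflamed tissue, to which the chemokine receptor CCR6 guides them, and γδ T cells and innate lymphoid cells make many of the same cytokines.

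The libraries held between 15751632 and 25737046 estimated counts each, so that 3 counts, used as the floor of detection, correspond to between 0.117 and 0.191 CPM, that is counts scaled to a common library size. Such floors and counting intervals cover counting error only, since amplified reads are not independent molecules. TCR constant-region transcripts summed to between 630 and 1377 CPM in CD4cre libraries, to between 2.65 and 645 CPM in libraries labelled CD4IKK1Δ and to between 3317 and 6374 CPM in libraries labelled CD4NIKΔ. CD4IKK1Δ replicate 1 had 41 and replicate 2 had 868 TCR constant-region counts, against 5277 or more in every other library. Log2 fold changes that moved by over 1.5 times without these 2 libraries are given both ways, apart from those of Il23r. Groups were compared per TCR count without these 2 libraries, except in the pooled Il23r ratio to CD4IKK1Δ and where all libraries are named. Transcripts of neurons (7 markers, all 7 over the floor) summed to between 1757 and 2113 CPM in CD4cre libraries, between 2162 and 2535 CPM in CD4IKK1Δ and between 583 and 1154 CPM in CD4NIKΔ, and thus ran opposite to the T cell transcripts. Chuk had between 258 and 588 counts in libraries labelled CD4IKK1Δ and between 325 and 683 in CD4cre libraries (log2 fold change −0.11, standard error 0.31, FDR 0.921 in edgeR's quasi-likelihood test). Map3k14 had between 232 and 626 counts in libraries labelled CD4NIKΔ and between 294 and 506 in CD4cre libraries (log2 fold change 0.30, standard error 0.36, FDR 0.575 in the same test). Neither targeted transcript therefore separated the groups, and these gene totals do not resolve the floxed exons. In sorted cells measured in bulk, fewer cells of a type and less RNA per cell cannot be told apart.

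By mean CPM, 8 of the 9 genes were lowest in libraries labelled CD4IKK1Δ, intermediate in CD4cre and highest in CD4NIKΔ, although single libraries of CD4IKK1Δ and CD4cre overlapped for Ahr, Ccr6 and Il22 and those of CD4cre and CD4NIKΔ for Il17a. For Il23r, CD4IKK1Δ and CD4cre were both at or under the floor, so that no order between these was measured. Il17f, the exception, was highest in CD4cre. The plot of CPM by library shows how far the groups separated for each gene.

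**Figure D1:**
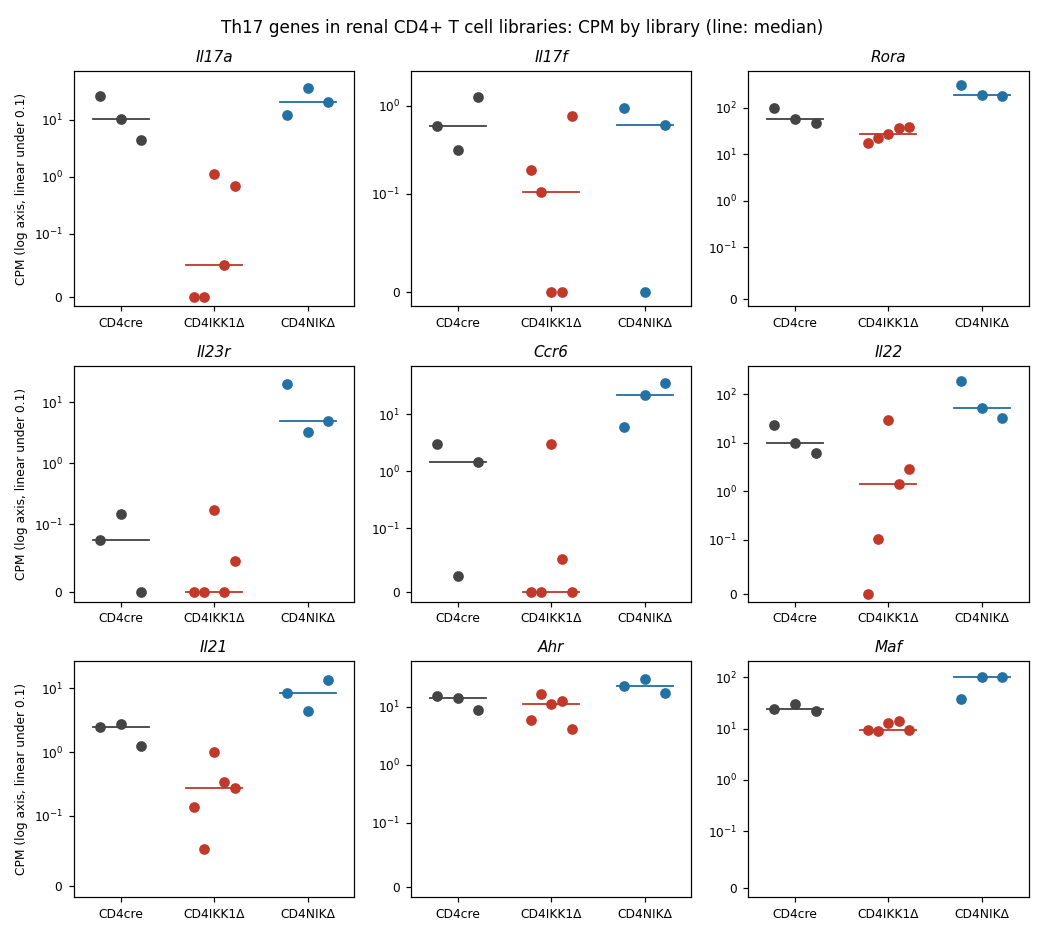
CPM of the 9 Th17 genes (vertical log axis, linear under 0.1 CPM) in each of the 11 libraries, grouped by genotype, with 1 point per library and a line at the group median. Libraries labelled CD4NIKΔ lie above all libraries labelled CD4IKK1Δ for every gene except Il17f, whose points overlap in all groups.

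Among the transcription factors, Rora (chr9:68561068-69295528 on GRCm39, plus strand) encodes RORα, a nuclear receptor that drives Th17 differentiation. Its level was 98.1, 57.1 and 45.9 CPM in the CD4cre libraries. In libraries labelled CD4IKK1Δ it was 17.6, 21.9, 27.2, 37.1 and 38.4 CPM. In libraries labelled CD4NIKΔ it was 313, 191 and 179 CPM. None of the 3 groups overlapped another, with every CD4IKK1Δ library under the lowest CD4cre library and every CD4NIKΔ library over the highest. Against CD4cre, Rora differed by −1.24 on the log2 scale in CD4IKK1Δ (standard error 0.31, FDR 0.107 in edgeR's quasi-likelihood test), short of the threshold, which was set at more than 2-fold and an FDR below 0.05. It rose in CD4NIKΔ by 1.76 on the log2 scale (standard error 0.34, FDR 0.0148 in the same test), a call that was lost without CD4cre replicate 2 (FDR 0.0526). CD4IKK1Δ libraries held 8.01-fold less Rora than CD4NIKΔ libraries (standard error 0.31 on the log2 scale, FDR 5.89e-05 in the same test). Relative to the TCR, Rora stood at 71.2, 51.6 and 73.0 per 1000 TCR counts in CD4cre, at 42.1, 141 and 151 in CD4IKK1Δ replicates 3 to 5 and at 94.4, 34.8 and 28.2 in CD4NIKΔ. On that scale the groups overlapped in all 3 comparisons, and the fitted difference between CD4NIKΔ and CD4cre was −0.32 on the log2 scale (standard error 0.56, FDR 0.614 in edgeR's quasi-likelihood test with TCR counts as library size).

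Maf (chr8:116409632-116434579, minus strand) encodes c-MAF, a transcription factor that activates Il21 and Il10 in helper T cells. Its level was 23.9, 30.5 and 22.4 CPM in CD4cre libraries. The 5 libraries labelled CD4IKK1Δ had 9.32, 8.92, 13.0, 14.1 and 9.26 CPM. Those labelled CD4NIKΔ had 38.5, 104 and 99.8 CPM. The groups were again separate on this scale, with CD4NIKΔ replicate 1 nearest to the controls. The log2 fold change against CD4cre was −1.23 in CD4IKK1Δ (standard error 0.28, FDR 0.0909 in edgeR's quasi-likelihood test) and 1.63 in CD4NIKΔ (standard error 0.37, FDR 0.0224). The latter passed the threshold in 1 of 6 fits without a single library, that without CD4NIKΔ replicate 1, and had an FDR of up to 0.0847 in the others. CD4IKK1Δ libraries held 7.38-fold less Maf than CD4NIKΔ libraries (FDR 7.20e-05 in the same test). Relative to the TCR, Maf had 17.3, 27.6 and 35.6 per 1000 TCR counts in CD4cre, 20.2, 53.7 and 36.4 in CD4IKK1Δ replicates 3 to 5, and 11.6, 18.9 and 15.7 in CD4NIKΔ. On this scale CD4IKK1Δ lay above CD4NIKΔ, as it did for 74.7% of all genes tested.

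Ahr (chr12:35547973-35585057, minus strand) encodes the aryl hydrocarbon receptor, which senses dietary and microbial ligands and is required for Il22 in Th17 cells. It had 15.5, 14.4 and 8.82 CPM in CD4cre libraries. In CD4IKK1Δ libraries it had 5.82, 16.6, 11.3, 12.7 and 4.10 CPM. In CD4NIKΔ libraries it had 22.6, 30.7 and 17.3 CPM. Ahr differed least in CPM of the transcription factors, with CD4cre and CD4IKK1Δ libraries intermixed. No difference from CD4cre was past the threshold (CD4IKK1Δ log2 fold change −0.35, FDR 0.794, CD4NIKΔ log2 fold change 0.85, FDR 0.115, both in edgeR's quasi-likelihood test). It was 2.33-fold lower in CD4IKK1Δ than in CD4NIKΔ (log2 fold change −1.22, standard error 0.43, FDR 0.0364 in the same test), and this call was lost without CD4IKK1Δ replicate 1, 3 or 5 or CD4NIKΔ replicate 1 or 2, with an FDR of up to 0.156, and also in a fit of the 8 libraries of both groups alone (FDR 0.0512). Per 1000 TCR counts Ahr had 11.3, 13.0 and 14.0 in CD4cre, 17.4, 48.5 and 16.1 in CD4IKK1Δ replicates 3 to 5, and 6.82, 5.60 and 2.71 in CD4NIKΔ. The groups did not overlap on this scale. The same held for 34.3% of all genes with CD4IKK1Δ above CD4cre, for 72.7% with CD4NIKΔ below CD4cre and for 74.7% with CD4IKK1Δ above CD4NIKΔ, so that these positions are not particular to Ahr.

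Il23r (chr6:67391313-67468888, minus strand) encodes the IL-23 receptor subunit that distinguishes established Th17 cells. CD4cre libraries held 2, 3 and 0 counts of it. CD4IKK1Δ libraries held 0, 0, 3, 0 and 1 counts. CD4NIKΔ libraries held 362, 67 and 69 counts. All 8 libraries of the first 2 groups were thus at or under the floor, while every CD4NIKΔ library was far over it, replicate 1 highest. Pooled over libraries, the CD4NIKΔ libraries held 115 times as many Il23r counts per total count as the CD4cre libraries (498 against 5 counts, exact 95% counting interval 49.0 to 356). Against CD4IKK1Δ the ratio was 208 (498 against 4 counts, interval 80.5 to 764). Replicate 1 carried most of these counts, and without it the ratios were 47.3 to CD4cre (136 against 5 counts, interval 19.8 to 148) and 85.3 to CD4IKK1Δ (interval 32.6 to 317.5). Il23r passed the expression filter through the CD4NIKΔ libraries alone and so had to differ from the other groups once it was tested. Its FDR of 0.0095 against CD4cre and of 0.000428 against CD4IKK1Δ in edgeR's quasi-likelihood test are therefore given as a description. The fitted fold changes depend on how the near-empty groups are smoothed and are not given as sizes. CD4IKK1Δ was not tested against CD4cre, since the gene did not pass the expression filter there.

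Per TCR transcript, Il23r was still higher in every CD4NIKΔ library than in the CD4cre libraries. It had 6.02, 0.600 and 0.764 per 1000 TCR counts in CD4NIKΔ against 0.0558, 0.132 and 0 in CD4cre. The pooled ratio on this scale was 27.0 (exact 95% counting interval 11.5 to 83.6), or 9.58 without CD4NIKΔ replicate 1 (interval 4.00 to 29.97). The ratio to CD4IKK1Δ, pooled over all 5 of its libraries, was 11.0 per TCR count (interval 4.29 to 40.7). Without CD4NIKΔ replicate 1 it was 3.91 (interval 1.49 to 14.6). For CD4IKK1Δ the depth of TCR counts limits the comparison, since 3 counts correspond to 0.263, 0.569 and 0.532 per 1000 TCR counts in replicates 3 to 5 and to 3.46 and 73.2 in replicates 2 and 1. The lowest CD4NIKΔ values were only just over the floors of replicates 4 and 5. Transcripts that mark γδ T cells (5 of 8 listed genes in the table) summed to between 59.1 and 283 CPM in CD4NIKΔ, between 13.2 and 57.6 CPM in CD4cre and between 0 and 4.96 CPM in CD4IKK1Δ. They were highest in CD4NIKΔ, as was Il23r, and their part in the result was not tested.

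The plot of counts against TCR counts sets Il23r beside 2 cytokines.

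**Figure D2:**
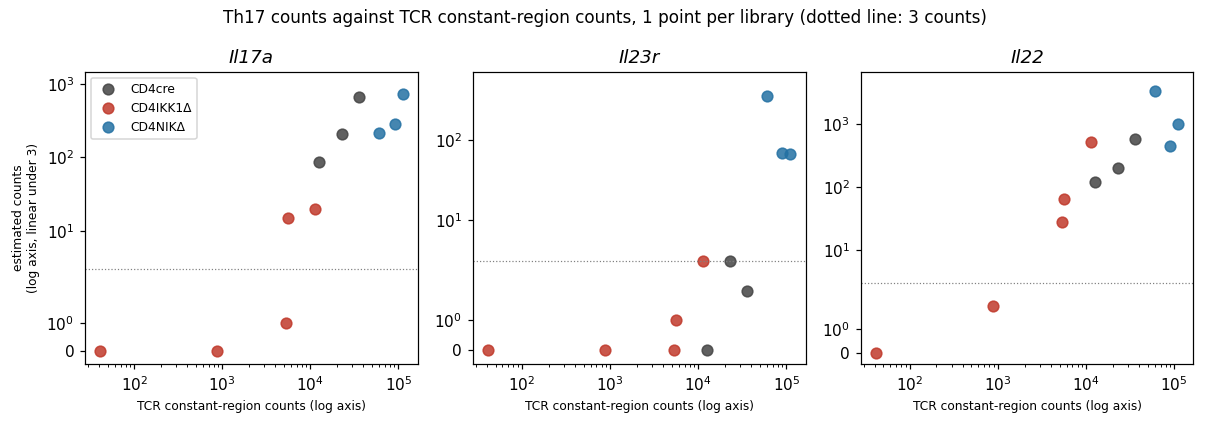
Estimated counts of Il17a, Il23r and Il22 (vertical log axis, linear under 3 counts) against summed Trac, Trbc1 and Trbc2 counts (horizontal log axis), 1 point per library, with a dotted line at the floor of 3 counts. Il17a and Il22 counts tend to be larger where TCR counts are larger, whereas Il23r exceeds the floor only in the 3 libraries labelled CD4NIKΔ.

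Ccr6 (chr17:8454869-8475973, plus strand) encodes the receptor for CCL20 that brings Th17 cells into inflamed tissue. It had 3.05, 0.0249 and 1.43 CPM in CD4cre libraries, that is 79.4, 0.5 and 28.6 estimated counts. In CD4IKK1Δ libraries it had 0, 0, 3.00, 0.0521 and 0 CPM. In CD4NIKΔ libraries it had 5.88, 21.2 and 34.6 CPM. Replicate 3 held nearly all Ccr6 of the CD4IKK1Δ group, at a level within the range of CD4cre, while the CD4NIKΔ libraries were above every other library. Ccr6 rose in CD4NIKΔ against CD4cre by 3.73 on the log2 scale (standard error 1.08, FDR 0.0422 in edgeR's quasi-likelihood test). The call held without CD4cre replicate 1, where the value was 4.74, and without CD4NIKΔ replicate 1, and was lost in the other 4 fits without a library (FDR of up to 0.152). It was lower in CD4IKK1Δ than in CD4NIKΔ, with a difference of −5.07 on that scale (standard error 1.71, FDR 0.0348) that grew without CD4IKK1Δ replicate 3, where the remaining 4 CD4IKK1Δ libraries held 1 count in all and the fitted size depends on smoothing. The call was lost without replicates 1 and 2 (−4.34, FDR 0.0637) and in 6 of 11 fits without a single library, among them that without CD4NIKΔ replicate 3 (−4.47, FDR 0.106). Against CD4cre it did not pass the threshold (−1.31, standard error 1.88, FDR 0.811, with −0.58 without replicates 1 and 2 and −0.29 without CD4cre replicate 1). Per 1000 TCR counts the values of 1.77, 3.86 and 5.43 in CD4NIKΔ overlapped those of 2.22, 0.0225 and 2.28 in CD4cre (exact permutation p = 0.4, smallest possible 0.1).

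Of the cytokines, IL-17A is the one that names the Th17 cell and acts on epithelium to draw neutrophils. Il17a had 25.6, 10.2 and 4.31 CPM in the CD4cre libraries. In CD4IKK1Δ libraries it had 0, 0, 1.13, 0.0497 and 0.676 CPM, where the largest value stands for 20 counts. The CD4IKK1Δ group held 36 Il17a counts in all, with 3 of 5 libraries at or under the floor, so that fitted sizes for this group are uncertain. In CD4NIKΔ libraries Il17a had 11.97, 36.04 and 20.3 CPM. Every CD4IKK1Δ library was under every library of the other groups, while CD4cre and CD4NIKΔ overlapped. In CD4IKK1Δ against CD4cre it was 35.3-fold lower, which did not pass the threshold (log2 fold change −5.14, standard error 1.25, FDR 0.107 in edgeR's quasi-likelihood test). This value was −4.43 without CD4IKK1Δ replicates 1 and 2, −6.09 without replicate 3 and −4.26 without CD4cre replicate 1, none of them past the threshold. Against CD4NIKΔ it fell by 5.90 on the log2 scale (standard error 1.13, FDR 0.00161 in the same test), with −6.83 without CD4IKK1Δ replicate 3 and −5.19 without replicates 1 and 2, both past the threshold. The difference between CD4NIKΔ and CD4cre was 0.75 on the log2 scale (standard error 0.64, FDR 0.426), or 1.62 without CD4cre replicate 1 (FDR 0.0928).

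Il17a was also low per TCR transcript in CD4IKK1Δ. It had 18.6, 9.23 and 6.85 per 1000 TCR counts in CD4cre, against 1.75, 0.190 and 2.66 in CD4IKK1Δ replicates 3 to 5. It had 3.61, 6.57 and 3.19 in CD4NIKΔ, between both other groups and overlapping neither. Replicates 1 and 2 had no Il17a count and are not read here, since 3 counts in replicate 1 correspond to 73.2 per 1000 TCR counts, above every CD4cre value. Without them the difference from CD4cre gave an exact two-sided permutation p of 0.1, the smallest that 3 against 3 libraries can give. The fit with TCR counts as library size, without those 2 libraries, put the difference at −2.90 on the log2 scale (standard error 1.16, FDR 0.0503 in edgeR's quasi-likelihood test). Over the 27 exact permutation tests of this kind, 1 for each gene and comparison, the lowest adjusted p was 0.2455 (Benjamini-Hochberg). A further 18 were computed with all 5 CD4IKK1Δ libraries and are not used.

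Il17f, whose product pairs with IL-17A, is the neighbour of Il17a on chromosome 1 and did not share its pattern. On GRCm39, Il17a lies at chr1:20801129-20804720 on the plus strand and Il17f at chr1:20847368-20860841 on the minus strand, with 42647 bases between them. Il17f had 15.5, 6.6 and 25 estimated counts in CD4cre, 2.9, 2, 0, 0 and 16.9 in CD4IKK1Δ, and 17.1, 0 and 8.7 in CD4NIKΔ. Counts in single libraries of every group overlapped, and CD4NIKΔ replicate 2, the library with the most Il17a at 733 counts, had no Il17f. None of the 3 comparisons of Il17f was past the threshold in edgeR's quasi-likelihood test, with log2 fold changes of −1.72 for CD4IKK1Δ and −0.47 for CD4NIKΔ against CD4cre and of −1.25 for CD4IKK1Δ against CD4NIKΔ (FDR 0.625, 0.817 and 0.540). Single libraries moved these values, the first to −1.08 without CD4cre replicate 3, the second to −1.20 without CD4NIKΔ replicate 1 and to 0.20 without CD4cre replicate 3, and the third to −2.76 without CD4IKK1Δ replicate 5 and to −0.54 without CD4NIKΔ replicate 1, none past the threshold. Counts this low leave standard errors of 1.28 to 1.52 on the log2 scale, so that a several-fold difference would not have been detectable. Over the 11 libraries, which differ widely in TCR transcript level, the rank correlation of Il17f with Il17a in log2 CPM was 0.20, whereas those of the other 7 genes with Il17a lay between 0.64 and 0.91. Without CD4IKK1Δ replicates 1 and 2 it was 0.02, and the others lay between 0.61 and 0.85.

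The starts of these neighbours and of the 2 receptor genes are shown because each holds the AGGTCA half-site that RORα, the product of Rora, is known to bind. The sequences are the 250 bases before the RefSeq start on GRCm38.p6, 5′ to 3′ on the gene's strand, with matches to AGGTCA on either strand in capitals. They lie at chr1:20730655-20730904 on the plus strand for Il17a, at chr1:20784271-20784520 on the minus strand for Il17f, at chr6:67491856-67492105 on the minus strand for Il23r and at chr17:8235793-8236042 on the plus strand for the first of 2 Ccr6 starts.
Il17a: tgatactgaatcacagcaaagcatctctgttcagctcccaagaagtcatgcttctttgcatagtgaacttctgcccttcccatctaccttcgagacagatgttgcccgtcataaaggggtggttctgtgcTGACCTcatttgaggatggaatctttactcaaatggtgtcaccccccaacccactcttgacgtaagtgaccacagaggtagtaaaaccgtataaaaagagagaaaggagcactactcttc
Il17f: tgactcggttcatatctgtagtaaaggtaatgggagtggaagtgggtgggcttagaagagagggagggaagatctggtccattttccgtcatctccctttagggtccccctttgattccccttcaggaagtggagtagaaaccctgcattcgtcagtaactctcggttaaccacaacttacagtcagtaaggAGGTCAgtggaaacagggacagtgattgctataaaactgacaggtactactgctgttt
Il23r: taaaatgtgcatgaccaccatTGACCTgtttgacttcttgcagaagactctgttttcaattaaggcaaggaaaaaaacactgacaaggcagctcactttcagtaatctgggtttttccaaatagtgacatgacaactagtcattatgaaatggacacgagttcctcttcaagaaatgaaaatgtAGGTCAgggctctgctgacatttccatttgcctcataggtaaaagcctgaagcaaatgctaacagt
Ccr6: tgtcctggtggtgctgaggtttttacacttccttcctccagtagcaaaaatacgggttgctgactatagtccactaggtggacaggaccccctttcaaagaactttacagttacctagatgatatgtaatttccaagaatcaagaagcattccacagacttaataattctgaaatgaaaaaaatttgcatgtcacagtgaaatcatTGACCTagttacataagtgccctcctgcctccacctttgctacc

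The match began 120 bases before the start of Il17a and 58 bases before that of Il17f. Il23r held 2 matches, at 229 and 66 bases, and Ccr6 held 1 at 44 bases before its first start. Of the 7 members with a promoter in the RefSeq table (Ahr and Maf were not among them), these 4 had a match, that is 4 of their 8 promoters, since the second Ccr6 start had none, against 14.0% of the 32851 promoters of this length. A TGANTCA motif of AP-1 was found in Il17a alone of the members (6.75% of all promoters, both strands), TTCNNNGAA of STAT proteins in Ccr6 alone (7.02%), and GCGTG, the core bound by AHR, in Rora and Il21 (28.2%). The NFκB motif, searched by its usual degenerate form, was found in the second Ccr6 start alone (7.25%). Such matches describe letters in a window and are not evidence of binding. The half-site was present upstream of both Il17a and Il17f, and its part in their levels was not tested.

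Il22 (chr10:118040847-118045952, plus strand) encodes a cytokine that acts on epithelial cells and supports tubular repair. It had 22.6, 9.78 and 5.97 CPM in CD4cre libraries. In CD4IKK1Δ libraries it had 0, 0.105, 29.2, 1.39 and 2.88 CPM. In CD4NIKΔ libraries it had 190, 50.8 and 31.9 CPM. CD4IKK1Δ replicate 3 was above all CD4cre libraries and the other 4 were below them, and all CD4NIKΔ libraries were above all others. Il22 rose in CD4NIKΔ against CD4cre by 2.83 on the log2 scale (standard error 0.74, FDR 0.0324 in edgeR's quasi-likelihood test). Without CD4NIKΔ replicate 1, the highest library, the value was 1.70 and the call was lost (FDR 0.0574), and it held in 2 of the 6 fits that left out a library, those without CD4cre replicate 1 (3.53) and without CD4NIKΔ replicate 3. Against CD4cre, CD4IKK1Δ differed by −0.93 (standard error 1.67, FDR 0.865), or by −0.20 without replicates 1 and 2, −3.53 without replicate 3 and −0.22 without CD4cre replicate 1, none past the threshold. The log2 fold change of CD4IKK1Δ against CD4NIKΔ was −3.76 (standard error 1.52, FDR 0.0745 in the same test), and it passed the threshold without CD4IKK1Δ replicate 3, at −6.32 with an FDR of 0.00374, but not without replicates 1 and 2, at −3.04 with an FDR of 0.0533, nor without CD4NIKΔ replicate 1, at −2.62 with an FDR of 0.273. Per 1000 TCR counts Il22 had 16.4, 8.84 and 9.48 in CD4cre, 45.3, 5.31 and 11.3 in CD4IKK1Δ replicates 3 to 5, and 57.2, 9.26 and 5.00 in CD4NIKΔ, so that all groups overlapped. The near-identical copy Il22b held up to 94.4 estimated counts in CD4NIKΔ, 29.2 in CD4cre and 24 in CD4IKK1Δ, and since reads can be split between both genes the division of Il22 counts is uncertain.

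Il21 (chr3:37276908-37286785, minus strand) encodes a cytokine that Th17 cells make in response to IL-6 and that feeds back on them. Its level was 2.47, 2.75 and 1.24 CPM in CD4cre libraries. It was 0.136, 0.0529, 0.998, 0.341 and 0.274 CPM in CD4IKK1Δ libraries, where replicates 1 and 2 were under the floor. It was 8.55, 4.45 and 13.5 CPM in CD4NIKΔ libraries. The groups did not overlap. Il21 rose in CD4NIKΔ against CD4cre by 2.02 on the log2 scale (standard error 0.59, FDR 0.0429 in edgeR's quasi-likelihood test), and this call was lost whichever single library was left out (FDR 0.0597 to 0.183). In CD4IKK1Δ it was 5.83-fold lower than in CD4cre without passing the threshold (log2 fold change −2.54, standard error 1.03, FDR 0.254), whereas the difference of −4.58 from CD4NIKΔ passed it (standard error 0.81, FDR 0.000817). Without CD4IKK1Δ replicate 3 these values were −3.38 and −5.40. Per 1000 TCR counts, 1.79, 2.48 and 1.98 in CD4cre stood above 1.55, 1.30 and 1.08 in CD4IKK1Δ replicates 3 to 5 (exact permutation p = 0.1, the smallest possible), and CD4NIKΔ had 2.58, 0.811 and 2.12. Those CD4IKK1Δ values rest on 17.7, 6.9 and 6.1 estimated counts. The fit with TCR counts as library size, without CD4IKK1Δ replicates 1 and 2, put the difference from CD4cre at −0.65 on the log2 scale (standard error 1.55, FDR 0.740 in edgeR's quasi-likelihood test).

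**Figure D3:**
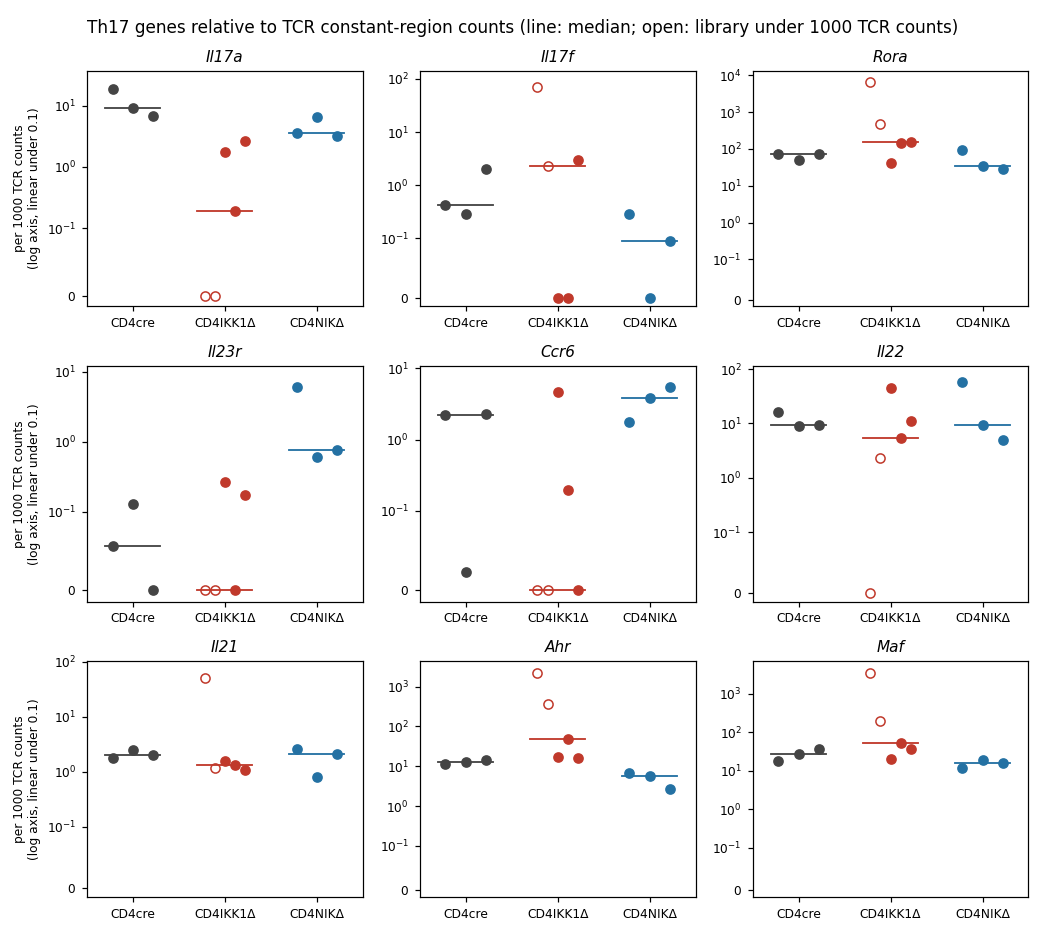
Estimated counts of the 9 Th17 genes per 1000 TCR constant-region counts (vertical log axis, linear under 0.1) in each library, grouped by genotype, with a line at the group median and open points for the 2 CD4IKK1Δ libraries under 1000 TCR counts. Il17a is lower in CD4IKK1Δ than in CD4cre and Il23r is higher in CD4NIKΔ than in CD4cre, while Ahr runs from highest in CD4IKK1Δ to lowest in CD4NIKΔ.

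Levels between genes were compared as mean CPM per kilobase of the canonical transcript. In CD4cre libraries Il22 (11.5 ± 7.87, SD, n = 3) and Il17a (11.4 ± 9.37) led, followed by Maf (6.45 ± 1.09) and Rora (6.08 ± 2.49). Ahr (2.32 ± 0.640), Ccr6 (0.956 ± 0.963), Il21 (0.701 ± 0.260) and Il17f (0.612 ± 0.407) came next, and Il23r was last at 0.0299 ± 0.0293. Neighbours in this order differed by less than the sum of their SDs, except for Rora and Ahr and for Il17f and Il23r. In CD4NIKΔ libraries Il22 led at 81.8 ± 77.7 CPM per kilobase. Rora (20.7 ± 6.71), Maf (20.3 ± 9.21), Il17a (19.5 ± 10.4) and Ccr6 (13.1 ± 9.13) each differed from the next by less than the sum of their SDs. Ahr (4.23 ± 1.22), Il23r (3.77 ± 3.70) and Il21 (2.87 ± 1.47) followed, and Il17f was lowest at 0.440 ± 0.406. In CD4IKK1Δ libraries Il22 (6.06 ± 11.4, SD, n = 5) rested on replicate 3 and was at 0.987 ± 1.22 (n = 4) without it, under Maf, Rora and Ahr. Over all 5 libraries, Maf (2.75 ± 0.615), Rora (2.58 ± 0.829) and Ahr (1.82 ± 0.922) were the genes with the most even level. Il17a there (0.317 ± 0.437 CPM per kilobase) had a lower mean than Ccr6 (0.388 ± 0.849), which also rested on replicate 3 and was at 0.00829 ± 0.0166 without it, against 0.155 ± 0.282 for Il17a (n = 4). Over all 5 libraries, Il17f (0.179 ± 0.269), Il21 (0.117 ± 0.122) and Il23r (0.0173 ± 0.0295) were lower still.

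Taken by comparison, none of the 8 members tested between CD4IKK1Δ and CD4cre passed the threshold in edgeR's quasi-likelihood test, where 0.0% of all 15653 genes did. All 8 were lower in CD4IKK1Δ, their median log2 fold change being −1.27 against 0.02 over all genes tested. At an unadjusted p under 0.05, 4 of 8 (Il17a, Rora, Il21 and Maf) were lower, where 8.91% of all genes were. The same 4 had groups that did not overlap in CPM (8.42% of all genes). With DESeq2, 3 members (Il17a, Rora and Maf) passed the threshold as lower, as did 4.46% of the 11256 genes it adjusted, with adjusted p of 0.000984, 0.0059 and 0.000448. Neuronal markers were higher and CD4 T cell markers lower in CD4IKK1Δ than in CD4cre libraries (CD4 T cell markers summed to between 8.84 and 636 CPM against between 868 and 1645 CPM, 10 of 10 over the floor), and their part in these differences was not tested. Markers of γδ T cells (0 to 4.96 against 13.2 to 57.6 CPM), CD8 T cells (0.0562 to 2.93 against 3.13 to 16.5 CPM), B cells (4.12 to 25.6 against 67.5 to 140 CPM), macrophages and monocytes (78.3 to 196 against 347 to 1512 CPM) and kidney tubule (3.52 to 12.2 against 18.5 to 88.1 CPM) were also lower in CD4IKK1Δ without overlap, and their part was not tested either. Per TCR transcript, without CD4IKK1Δ replicates 1 and 2, Il17a and Il21 had separate groups with CD4IKK1Δ lower (0.811% of all genes) and Ahr with CD4IKK1Δ higher (34.3% of all genes). Il21 rests there on few counts, and its fitted log2 fold change on this scale was −0.65 (standard error 1.55).

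**Figure D4:**
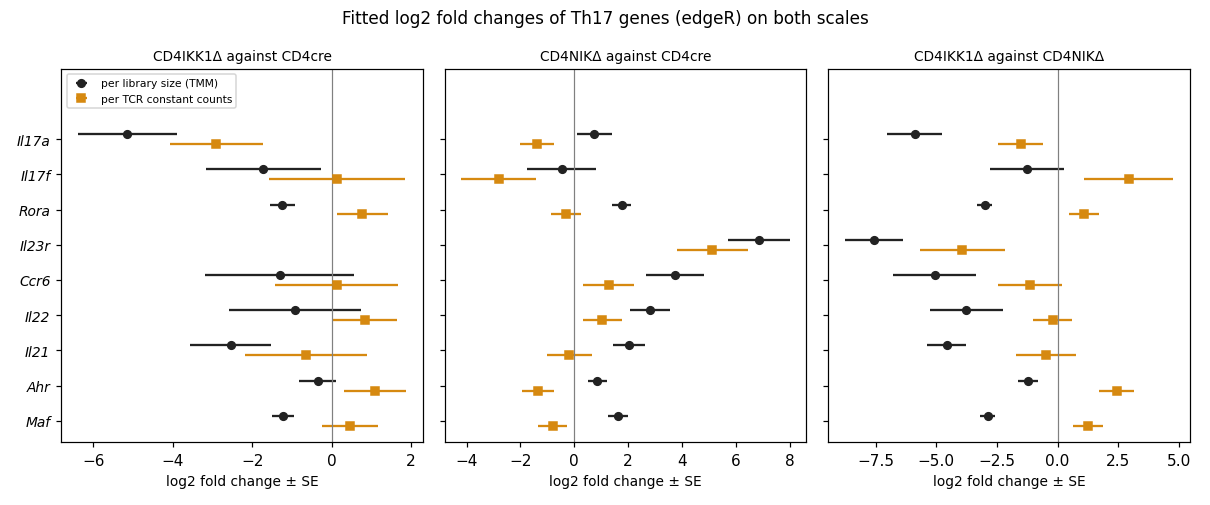
Fitted log2 fold changes with standard errors (horizontal axis) of the 9 Th17 genes in the 3 comparisons, in edgeR with TMM library sizes (black circles) and with TCR constant counts as library size (orange squares, without CD4IKK1Δ replicates 1 and 2). On the TCR scale most genes move toward or across 0, Il17a in CD4IKK1Δ and Il23r in CD4NIKΔ against CD4cre stay apart from it, and Il23r, whose values depend on smoothing of near-empty groups, was not fitted between CD4IKK1Δ and CD4cre.

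Between CD4NIKΔ and CD4cre, 6 of 9 members rose (Rora, Maf, Il23r, Ccr6, Il22 and Il21), against 10.4% of the 15209 genes tested, and no member fell, against 6.99%. The median log2 fold change was 1.76 over the members and −0.02 over all genes. In CPM, 7 members had separate groups with CD4NIKΔ higher (22.9% of all genes), namely these 6 and Ahr. The number of members past the threshold was 4 without CD4cre replicate 1, 1 without CD4cre replicate 2, 2 without CD4cre replicate 3, 4 without CD4NIKΔ replicate 1, 2 without CD4NIKΔ replicate 2 and 3 without CD4NIKΔ replicate 3. Over all genes, 2649 were past it with every library, and 2489, 1001, 859, 3468, 918 and 674 in the same fits in this order. Il23r, which was tested through its level in CD4NIKΔ alone, passed in all 6 of these fits, Rora in 5, Ccr6 and Il22 in 2 each, Maf in 1 and Il21 in 0, and the calls that were lost had an FDR of up to 0.183 in edgeR's quasi-likelihood test. CD4 T cell markers summed to between 5254 and 7531 CPM in CD4NIKΔ libraries, above the CD4cre libraries. Neuronal and glial markers were lower (glia 143 to 376 against 446 to 592 CPM), and the part of these markers was not tested. Markers of B cells (193 to 663 against 67.5 to 140 CPM), γδ T cells (59.1 to 283 against 13.2 to 57.6 CPM) and endothelium (23.2 to 49.5 against 9.79 to 19.4 CPM) were also higher in CD4NIKΔ without overlap, and their part was not tested. Per TCR transcript, Il23r had separate groups with CD4NIKΔ higher (1.16% of all genes) and Il17a, Il17f and Ahr with CD4NIKΔ lower (72.7% of all genes). The direction of those 3 members was shared by most genes tested.

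Between CD4IKK1Δ and CD4NIKΔ, fitted with all 11 libraries, 7 of 9 members were lower in CD4IKK1Δ (all but Il17f and Il22), against 18.5% of the 16546 genes tested, and none was higher, against 14.8%. The summed markers of CD4 T cells (8.84 to 636 against 5254 to 7531 CPM), γδ T cells (0 to 4.96 against 59.1 to 283 CPM), B cells (4.12 to 25.6 against 193 to 663 CPM), macrophages and monocytes (78.3 to 196 against 522 to 810 CPM), CD8 T cells, NK cells, kidney tubule and endothelium were lower in CD4IKK1Δ without overlap as well. Those of neurons (2162 to 2535 against 583 to 1154 CPM) and glia (447 to 648 against 143 to 376 CPM) were higher, and the part of these lists was not tested. The median log2 fold change was −3.76 over the members and 0.06 over all genes. In CPM, 8 members had separate groups with CD4IKK1Δ lower (24.4% of all genes), the exception being Il17f. Il17a, Rora, Il21 and Maf, and Il23r with the same limit, passed the threshold whichever single library was omitted (11 fits). Ccr6 was lost without CD4cre replicate 3, CD4IKK1Δ replicate 2, 4 or 5 or CD4NIKΔ replicate 2 or 3, with an FDR of up to 0.106 in edgeR's quasi-likelihood test. In a fit of the 8 libraries of both groups alone, 6 members passed, without Ahr. Without both CD4IKK1Δ libraries of low TCR count, 6 members passed and Ccr6 did not (FDR 0.0637 in the same test), while 0 passed between CD4IKK1Δ and CD4cre as before. Per TCR transcript, without CD4IKK1Δ replicates 1 and 2, Il17a and Il23r had separate groups with CD4IKK1Δ lower (1.67% of all genes) and Ahr and Maf with CD4IKK1Δ higher (74.7% of all genes). Both comparisons with CD4cre share the same 3 control libraries, so that their values are not independent.

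The wider Th17 pathway was taken from a list of 46 other genes in 5 roles: receptors, kinases and signal transducers, transcription factors, products and surface markers, and genes that oppose Th17 cells or favour other helper T cells. Between CD4IKK1Δ and CD4cre, 0 of 44 tested passed the threshold in edgeR's quasi-likelihood test. At an unadjusted p under 0.05, 17 were lower, where 8.91% of all genes were, and 1 was higher, where 7.65% were. Per TCR transcript, without CD4IKK1Δ replicates 1 and 2, 1 had separate groups with CD4IKK1Δ lower (0.811% of all genes) and 3 with CD4IKK1Δ higher (34.3%). DESeq2 called 12 lower, where 4.46% of all genes were. CD4 T cell markers were lower in the same libraries, at 8.84 to 636 CPM against 868 to 1645 CPM, and their part was not tested. The 4 with the smallest p were Il2ra, the high-affinity IL-2 receptor chain (1.00 ± 0.624 against 12.5 ± 1.34 CPM, FDR 0.0551), Stat5a (3.78 ± 2.12 against 21.1 ± 4.28 CPM, FDR 0.0898), Stat5b (26.8 ± 6.13 against 63.7 ± 34.9 CPM, FDR 0.111) and Nfkbiz (17.6 ± 10.0 against 58.4 ± 15.1 CPM, FDR 0.122), all in edgeR's test. IL-2 signals through STAT5, which opposes Th17 differentiation, and Nfkbiz encodes IκBζ, a partner of the ROR factors. The median log2 fold change was −2.35 for opposing genes, −1.88 for products and surface markers, −1.85 for transcription factors, −0.82 for receptors and −0.63 for kinases and signal transducers. The medians of promoting and of opposing genes thus lay on the same side of 0, and the difference between roles was not tested.

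In CD4NIKΔ against CD4cre, 20 of 45 tested pathway genes rose, against 10.4% of all genes, and none fell, against 6.99%. On omitting single libraries, between 10 and 25 pathway genes and between 674 and 3468 of all genes were past the threshold. With all 11 libraries in 1 fit these numbers were 5 and 2129. CD4 T cell markers were at 5254 to 7531 CPM in these CD4NIKΔ libraries against 868 to 1645 CPM in CD4cre, and their part was not tested. Per TCR transcript, 18 pathway genes had separate groups with CD4NIKΔ lower (72.7% of all genes) and 3 with CD4NIKΔ higher (1.16%). The 20 that rose were 4 of 9 receptors, 2 of 6 kinases and signal transducers, 4 of 10 transcription factors, 4 of 9 products and surface markers and 6 of 11 opposing genes. Among those with the largest change were Il2, the T cell growth factor (23.4 ± 12.3 against 1.48 ± 0.933 CPM, FDR 0.00771), Cxcr6, a chemokine receptor of tissue T cells (1073 ± 340 against 81.6 ± 50.3 CPM, FDR 0.0055), Il27ra, the receptor of the Th17 inhibitor IL-27 (247 ± 107 against 19.0 ± 5.26 CPM, FDR 0.00234), Il2rg (263 ± 152 against 32.2 ± 18.7 CPM, FDR 0.0096) and Il12rb1, the chain shared by the receptors of IL-12 and IL-23 (40.2 ± 8.82 against 5.81 ± 3.09 CPM, FDR 0.00752), all in edgeR's quasi-likelihood test. Of these, Il2 and Il27ra belong to the opposing genes. Between CD4IKK1Δ and CD4NIKΔ, 33 of 46 pathway genes were lower in CD4IKK1Δ, among them all 11 opposing genes, against 18.5% of all genes, and none was higher, against 14.8%. Per TCR transcript, without CD4IKK1Δ replicates 1 and 2, 13 had separate groups with CD4IKK1Δ higher (74.7% of all genes) and 3 with CD4IKK1Δ lower (1.67%). The 6 with the largest fitted change were Gfi1, a repressor of the Th17 program (0.0525 ± 0.0883 against 23.3 ± 22.5 CPM, FDR 0.00264), Cxcr6 (11.6 ± 8.99 against 1073 ± 340 CPM, FDR 0.00151), Il2 (0.387 ± 0.705 against 23.4 ± 12.3 CPM, FDR 0.00222), Ets1 (2.53 ± 2.37 against 120 ± 32.3 CPM, FDR 0.000396), Il2rg (7.68 ± 8.78 against 263 ± 152 CPM, FDR 0.00664) and Il2ra (1.00 ± 0.624 against 31.9 ± 11.9 CPM, FDR 7.40e-05), all in the same test. Gfi1, near 0 in CD4IKK1Δ, entered the fit through the libraries of the other groups, so that its FDR is a description, its place depends on smoothing, and it is 1 of the 33 and of the 11 opposing genes counted.

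The genes whose pattern was most like that of Il17a were sought by Spearman's rho of log2 CPM over the 11 libraries among 16663 genes, as a description, since the libraries differ together in TCR transcript level. They were Trbj2-6, a joining segment of the TCR β chain (rho 0.98), followed by Gadd45b, Nfkbia, Nr3c1 and Runx1 (rho 0.98 each). Without CD4IKK1Δ replicates 1 and 2 other genes took these places, Phf2, Adck5, Zcchc2, Irak1 and Rpl15-ps3 (rho 0.97 to 1.00 over 9 libraries), so that the choice rests on those 2 libraries. Nfkbia encodes the NFκB inhibitor IκBα, Nr3c1 the glucocorticoid receptor and Runx1 a T cell transcription factor. Over the 11 libraries, the rho of members with the summed TCR constant CPM was between 0.74 for Ahr and 0.96 for Il21, and 0.14 for Il17f, with 0.93 for Il17a. After division by TCR counts, the genes nearest to Il17a were Pilrb1, Trav14-2, Trav16n, Fut7 and Rln3 (rho 0.90 to 0.92), and the highest-ranked member was Il22 (rho 0.51). Over the 9 libraries these were Lrmp, Pilrb1, Smkr-ps, Trav14-2 and Il20ra (rho 0.92 each), and the highest-ranked member was Il17f (rho 0.47).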

How the data were processed

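RNA of renal CD4+ T cells from 11 mice was sequenced, 1 library per mouse, and libraries were grouped by the genotype in their labels. Trimmed reads (Trimmomatic) were quantified by the authors with kallisto, and the deposited table gives, for each library, 1 estimated count per gene symbol that is not normalized. GRCm39 is named in the study's methods and mm10 in the submitters' processing notes, and the kallisto version and annotation are not given in the sources used here. Estimated counts were not whole in 35.3% to 41.8% of a library's values and were rounded for tests. Gene positions were taken from GENCODE on GRCm39 and upstream sequences from RefSeq on GRCm38.p6. In the annotation, 6 of the 9 members overlap a gene on the other strand, and whether counting used strand is not stated, so that reads of both cannot be told apart.

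Each comparison with CD4cre was fitted on its own groups and that of CD4IKK1Δ with CD4NIKΔ on all 11 libraries, with edgeR's expression filter, TMM and robust quasi-likelihood F test. p-values were adjusted by Benjamini-Hochberg over all genes tested, and genes past the threshold had more than a 2-fold difference and an FDR below 0.05. Versions were R 4.3.3 and edgeR 4.0.16. Standard errors come from the F statistic. Values per 1000 TCR constant-region counts were compared by exact two-sided permutation of mean ranks (SciPy 1.17.1). The fits were tested on simulated counts. The alternatives were RLE factors, a filter of 1 count in any library, DESeq2 1.42.0, the replicate number as a block, other samples in the fit, TCR counts as library size, CD3 counts as denominator, and leaving out each library. Leaving out the 2 CD4IKK1Δ libraries under 1000 TCR counts, CD4NIKΔ replicate 1 for Il23r ratios and CD4IKK1Δ replicate 3 for levels per kilobase was chosen after seeing the data. The genes named are the members, up to 6 pathway genes per comparison with the largest change past the threshold (or the 4 with the smallest p; 1 gene of this choice is not reported here) and the 5 genes most like Il17a among those with 10 counts in at least 3 libraries. Members and lists were chosen with earlier results of these data known. Labels do not say whether mice share a litter or run. Of the 55 pairs of libraries, 0 were identical. Other marker lists gave these summed CPM in CD4cre, CD4IKK1Δ and CD4NIKΔ: CD8 T cells up to 16.5, 2.93 and 25.7, NK cells up to 21.7, 5.18 and 85.9, B cells up to 140, 25.6 and 663, macrophages up to 1512, 196 and 810, neutrophils up to 3.62, 2.33 and 2.83, kidney tubule up to 88.1, 12.2 and 114, endothelium up to 19.4, 11.7 and 49.5, and glia up to 592, 648 and 376.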

Additional observations from a re-analysis of the deposited data

Results flagged for a closer look

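In the group of 5 libraries labelled CD4IKK1Δ, 18 gaps between the most extreme library and its nearest neighbour were tested, 1 for each member and scale, and 11 were larger than Dixon's limit of 0.71 of the group's range. Chance flags about 1 in 20 groups, but over all 16546 genes tested the same limit was passed by 12.2% in CPM and by 91.0% per 1000 TCR counts. The 4 members past it in CPM and the 7 per TCR count are to be read against these shares, and nothing about the members follows from the latter. In CPM, replicate 3 stood apart for Il22 (29.2 against 2.88 in the next library), Ccr6 (3.00 against 0.0521) and Il23r (0.170 against 0.0451, that is 3 counts against 1), and replicate 5 for Il17f (0.761 against 0.188). Per 1000 TCR counts, replicate 3 stood apart for Il22 (45.3 against 11.3) and Ccr6 (4.65 against 0.199). Replicate 1, with 41 TCR counts in all, stood apart for 85.9% of all genes and among the members for Rora (6648 against 483 in the next library), Maf (3516 against 196), Ahr (2195 against 366), Il17f (71.0 against 2.99) and Il21 (51.4 against 1.55). For replicate 3, Il22 and Ccr6 counts of 517 and 53 were far over the floor of 3 counts, whereas the Il17f and Il21 values of replicate 1 rest on 2.9 and 2.1 estimated counts. The cause was not tested.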

How the results depend on the processing

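Of the values recomputed under other settings, 362 kept their direction and side of the threshold, 51 kept their direction but were no longer past it and 5 newly passed it. Between CD4IKK1Δ and CD4cre, the 0 members past the threshold became 3 in DESeq2. The 0 pathway genes became 12 in DESeq2, 2 with all 11 libraries in 1 fit, 1 with the filter of 1 count in any library, and 1 with TCR counts as library size and the 2 libraries of low TCR count left out. The 0 of all genes became 542 in DESeq2, 129 with all 11 libraries, 48 with the filter of 1 count, 36 without the 2 libraries and 1 with RLE factors, and ranged from 0 to 23 on omitting single libraries. Members with separate groups per TCR transcript numbered between 2 and 4 in those fits, against 2 in all libraries. Between CD4NIKΔ and CD4cre, the 6 members past the threshold became 3 with all 11 libraries (Rora, Maf and Il23r), 1 with TCR counts as library size (Il23r), and 1 to 4 on omitting single libraries. The 20 pathway genes became 5, 12 and between 10 and 25. The 2649 of all genes lay between 674 and 3468 on omitting single libraries, and were 3869 in DESeq2. Between CD4IKK1Δ and CD4NIKΔ, TCR counts as library size changed the 7 members to 4, or 2 without the 2 libraries, and the 33 pathway genes to 14, or 17. These 4 were Ahr, Maf, Rora and Il17f, all higher in CD4IKK1Δ, in a fit that holds replicate 1 with its 41 TCR counts. The 2 were Ahr, higher in CD4IKK1Δ (FDR 0.002685), and Il23r, lower and with the limit given above (FDR 0.0368), both in edgeR's quasi-likelihood test. Per TCR transcript, without the 2 libraries, 74.7% of all genes had separate groups with CD4IKK1Δ higher. The number of all genes past the threshold on this scale is not given here.

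Signs turned nearly only with TCR counts as library size. For CD4IKK1Δ against CD4cre the log2 fold changes became 5.36 (Ahr), 3.32 (Il17f), 1.28 (Il21), 0.28 (Il22), 4.82 (Maf) and 4.51 (Rora), with a median of 2.30 over the members. Without the 2 libraries they were 1.10 (Ahr), 0.13 (Ccr6), 0.14 (Il17f), 0.84 (Il22), 0.46 (Maf) and 0.77 (Rora), with a median of 0.30. For CD4NIKΔ against CD4cre they became −1.34 (Ahr), −1.38 (Il17a), −0.18 (Il21), −0.80 (Maf) and −0.32 (Rora), the last also the median. For CD4IKK1Δ against CD4NIKΔ they became 6.69 (Ahr), 6.02 (Il17f), 1.34 (Il21, also the median), 5.62 (Maf) and 4.82 (Rora), and 2.44 (Ahr), 2.94 (Il17f), 1.26 (Maf) and 1.09 (Rora) without the 2 libraries. Il17f in CD4NIKΔ against CD4cre turned to 0.20 without CD4cre replicate 3 and to 0.14 without CD4NIKΔ replicate 2, in a range from −1.20 to 0.20 on omitting single libraries.

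The replicate numbers are shared by the labels of the groups. Deviations of same-numbered libraries from their group means had correlations between −0.156 and 0.115, so that no pairing of the mice by number was seen. With the replicate block, 3, 1185 and 4994 genes were past the threshold in the 3 comparisons, against 0, 2649 and 5512 without it, and 0, 4 and 5 members were, Ahr (FDR 0.0832) and Ccr6 (FDR 0.0677 in edgeR's quasi-likelihood test) being lost in the third.

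Depth limits Il23r, Il17f and Ccr6, with 5, 4 and 4 of 5 CD4IKK1Δ libraries at or under 3 counts. It also limits Il17a, with 3 such libraries, and Il22 and Il21, with 2 each.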
